A study of Mus musculus with 2 samples.

Results

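Cdkn1a-high leukemia cells were selected on their own Cdkn1a count: from the sorted cells of a mouse leukemia, all cells with at least 3 Cdkn1a UMIs were taken. A UMI, or unique molecular identifier, stands for 1 captured RNA molecule. Of 14292 cells with at least 500 detected genes and at most 10% mitochondrial UMIs, 526 met this rule. They comprised 84 of 6886 cells in the Usp18+/f-labelled library and 442 of 7406 cells in the Usp18+/Δ-labelled library. For comparison, each Cdkn1a-high cell was set against 3 cells of its own library that had 0 Cdkn1a UMIs and the nearest total number of UMIs, 252 and 1326 matched cells in all. Because the rule used Cdkn1a, the level of Cdkn1a in these cells is a description of how they were chosen.

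The study profiled leukemia cells after loss of 1 allele of Usp18, which encodes a protease that removes ISG15 from proteins and limits type I interferon signaling. The leukemia was driven by AE9a, a truncated AML1-ETO fusion, delivered with GFP by retrovirus to hematopoietic cells carrying 1 floxed Usp18 allele and UBCER-Cre, a tamoxifen-activated Cre driven by a ubiquitin promoter that is active in all tissues. The leukemia was transplanted into recipients, which after becoming sick received oil (Usp18+/f) or tamoxifen in oil (Usp18+/Δ), and GFP+ Lin− c-Kit+ cells were sorted from spleen 3 days after the first injection. Both groups carried the floxed allele, the Cre and AE9a, so tamoxifen and the deletion cannot be told apart, and the cells of 3 mice were pooled into 1 library per group, so mice cannot be told apart and no test across animals was possible.

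Cdkn1a encodes p21, an inhibitor of cyclin-dependent kinases that holds cells before DNA replication and also acts at later points of the cell cycle. It is the best known transcriptional target of p53, the DNA damage and stress response factor, and p53 also switches on genes of apoptosis, DNA repair and growth control, together with Mdm2, its own inhibitor. Cdkn1a can also be raised without p53, among others by interferon signaling and during the maturation of blood cells, which is why p53 targets, cell cycle genes, interferon-stimulated genes (ISGs) and maturation genes were compared.

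As a check of the labels, UMIs of Usp18, the deleted gene, were counted in each library. This gene (ENSMUSG00000030107), which spans 121245906 to 121270917 of chromosome 6 in mm10, had 354 UMIs, or 5.65 counts per 1000000 UMIs (CPM), in the Usp18+/f-labelled library and 1520 UMIs, or 23.8 CPM, in the Usp18+/Δ-labelled library, a log2 ratio of 2.07 (95% interval 1.91 to 2.25). Its mRNA was therefore higher in the library labelled with the deleted allele. Usp18 is itself an ISG, and counts of 3′ ends do not show which allele an RNA came from or whether the deleted part was missing, so they check the labels only in this limited way. The libraries held 63690481 and 65146263 UMIs over 7281 and 7833 barcodes. Among them 15 barcode sequences occurred in both libraries, and 1 of these was a Cdkn1a-high cell in both; without these barcodes the share and the values of the p53, ISG, S phase, G2 and mitosis, erythroid, mast cell, stem and progenitor, and granulocyte and monocyte lists below moved by less than their intervals. The sort was on the c-Kit protein, and Kit UMIs were found in 54 of 84 Cdkn1a-high cells (64.3%, exact 95% interval 53.1 to 74.4%) and 156 of 252 matched cells (61.9%) of the Usp18+/f-labelled library, and in 214 of 442 (48.4%, 43.7 to 53.2%) and 740 of 1326 (55.8%) of the other. Mpo, the granule peroxidase of immature granulocytes and 1 of the myeloid markers chosen, had 0 UMIs in all of these cells. Gata2, another of these markers, was present at 189 CPM in Cdkn1a-high and 187 CPM in matched cells of the Usp18+/f-labelled library. In the other library it had 167 CPM and 179 CPM. Cpa3, also chosen, is described below. All intervals cover counting error only, not differences between mice or libraries.

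Cdkn1a (ENSMUSG00000023067) lies on chromosome 17 from 29090976 to 29100727 on the plus strand of mm10. The sequence upstream of its first RefSeq start site is shown because it holds a close match to the p53 consensus, a pair of half-sites with no spacer, as does the sequence upstream of Ccng1, a p53 target described below. Capitals mark the match, and both sequences are from RefSeq with build GRCm38.p6 (mm10), Cdkn1a from chr17:29090898-29090977 on the plus strand and Ccng1 from chr11:40755432-40755511 on the minus strand, written in the direction of transcription.
Cdkn1a: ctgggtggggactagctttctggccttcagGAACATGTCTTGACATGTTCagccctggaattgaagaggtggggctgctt
Ccng1: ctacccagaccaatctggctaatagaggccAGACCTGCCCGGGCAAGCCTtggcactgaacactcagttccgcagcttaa

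The matches lay 51 to 32 bases before the start of Cdkn1a and 195 to 176 bases before that of Ccng1, each with 1 mismatch to the consensus and with the fixed C and G of both half-sites present. Both strands were covered, since the consensus reads the same on either, and only windows of 250 bases before to 50 after a start were searched. Over all 32851 RefSeq windows of this length, 22 held a match with at most 1 mismatch (0.0670%). Of Cdkn1a and the 35 listed p53 targets, 27 had a RefSeq window, and 3 held such a match. Beside Cdkn1a and Ccng1 this was Rps27l, in which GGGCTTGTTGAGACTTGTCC lay 117 to 98 bases before 1 of its start sites. The second Cdkn1a start site had no match closer than 7 mismatches in its window. A match is a description of letters and not a site shown to be bound.

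Most cells had no Cdkn1a UMI: 5912 of 6886 (85.9%) in the Usp18+/f-labelled library and 5473 of 7406 (73.9%) in the Usp18+/Δ-labelled library. The Cdkn1a-high cells held 3 to 12 UMIs in the first library (median 3) and 3 to 22 in the second (median 4). Although few, they carried 343 of 1374 Cdkn1a UMIs (25%) and 2128 of 3998 (53.2%) of the kept cells of each library. Just outside the threshold, 141 and 379 cells held 2 UMIs, and just inside it 47 and 176 held 3. The numbers show no gap at the threshold, so Cdkn1a-high is a range and not a separate class of cells, as the plot of cells by Cdkn1a UMIs shows.

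**Figure D1:**
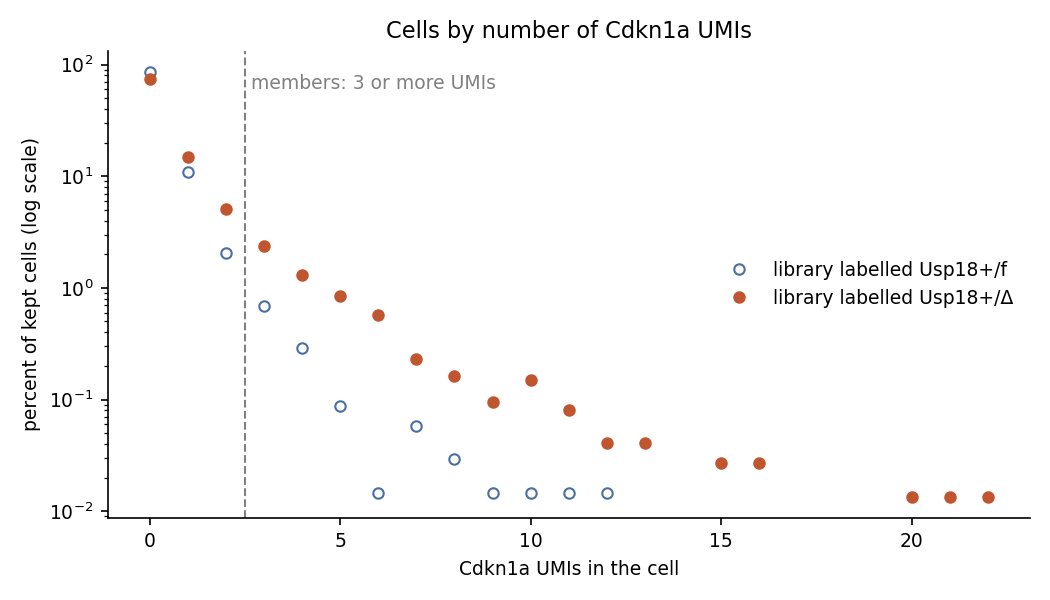
Cells of each library by their number of Cdkn1a UMIs (x axis), as the percent of kept cells on a log scale (y axis); open circles are the Usp18+/f-labelled library, filled circles the Usp18+/Δ-labelled library, and the dashed line marks the threshold. From 1 UMI upwards the Usp18+/Δ-labelled library holds the larger share at every number of UMIs where both have cells, and only it has cells with more than 12.

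Cdkn1a-high cells made up 1.22% (exact 95% interval 0.974 to 1.51%) of cells in the Usp18+/f-labelled library and 5.97% (5.44 to 6.53%) in the Usp18+/Δ-labelled library. The log2 ratio of the shares was 2.29 (score interval 1.96 to 2.62). The libraries differed little in depth, with medians of 8670 and 8147.5 UMIs per kept cell, the lower in the library with more Cdkn1a-high cells. Within 4 bands of total UMIs (quartiles of both libraries together) the share was 0.422%, 0.885%, 1.47% and 1.95% in the Usp18+/f-labelled library and 4.07%, 5.32%, 6.02% and 8.95% in the other, so that deeper cells met the rule more often in both and the Usp18+/Δ-labelled library was higher in every band. When each cell was thinned to 3000 UMIs, 11 of 6428 cells (0.171%) and 99 of 7053 cells (1.40%) still had 3 or more, a log2 ratio of 3.04 (2.15 to 3.92). Of the barcodes left out for few genes or many mitochondrial UMIs, 2 of 395 and 13 of 427 had at least 3.

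Matching made Cdkn1a-high and matched cells alike in depth. Median totals were 10645.5 and 10643.5 UMIs in the Usp18+/f-labelled library and 9204 and 9204 in the other, and median mitochondrial shares were 6.0% against 6.15% and 6.40% against 6.43%. Doublet scores above the 95th percentile of the library were found in 9 of 84 Cdkn1a-high cells (10.7%) and 9.13% of matched cells, and in 33 of 442 (7.47%) and 6.18%.

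p53 targets were higher in Cdkn1a-high cells than in matched cells of both libraries. Summed over all 35 listed targets (Cdkn1a left out), they took 1982 UMIs or 1947 CPM against 1309 CPM in the Usp18+/f-labelled library, a log2 ratio of 0.57 (0.49 to 0.65), and 12187 UMIs or 2785 CPM against 1380 CPM in the Usp18+/Δ-labelled library, a log2 ratio of 1.01 (0.98 to 1.05). The median over the 16 targets with a mean of at least 20 CPM was 0.74 and 1.44, against 0.01 and -0.04 over all genes at that level. Single genes were called where they had a mean of at least 20 CPM and differed by at least 1.5-fold. In the Usp18+/f-labelled library, 9 of 16 p53 targets past this level were called higher, against 2.47% of all 5986 genes, and 0 were called lower, against 2.09% of all. In the Usp18+/Δ-labelled library, 15 of 16 were called higher, against 1.64% of all, and 0 lower, against 0.618%. All 9 were called in both libraries, against 0.585% of all genes, and 0 were lower in both, against 0.0835%. Some of the 16 passed the level only because they were high in Cdkn1a-high cells. Of the 11 that reached 20 CPM in the matched cells alone, 5 were called higher in the Usp18+/f-labelled library, against 1.95% of all genes so filtered, and 10 in the other, against 1.27%. The medians over these 11 were 0.49 and 1.37, against 0.01 and -0.05 over all genes so filtered.

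Among the regulators of p53 and its close partners, Mdm2, the ubiquitin ligase that degrades p53, had 49 UMIs (48.1 CPM) in Cdkn1a-high and 72 (23.6 CPM) in matched cells of the Usp18+/f-labelled library, and 406 (92.8 CPM) and 403 (30.8 CPM) in the other. The log2 ratios were 1.03 (0.47 to 1.57) and 1.59 (1.39 to 1.80), so Mdm2 was higher in both. Ccng1, which encodes cyclin G1, had 139 UMIs (137 CPM) against 165 (54.1 CPM) and 1090 UMIs (249 CPM) against 955 (72.9 CPM), log2 ratios of 1.34 (1.001 to 1.67) and 1.77 (1.65 to 1.90). It was detected in 58 of 84 Cdkn1a-high cells (69.0%) and 115 of 252 matched cells (45.6%), and in 371 of 442 (83.9%) and 604 of 1326 (45.6%). Ppm1d, a phosphatase that shuts the response down, stood at 0.36 (-0.45 to 1.13) and 0.61 (0.25 to 0.96). Trp53 itself, looked up although it was not on the list, differed little, at 299 CPM against 264 CPM and 290 CPM against 268 CPM, log2 ratios of 0.18 (-0.02 to 0.37) and 0.12 (0.02 to 0.21).

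Of the growth and survival genes, Phlda3, an inhibitor of the kinase Akt, had 199 CPM against 103 CPM and 289 CPM against 107 CPM, log2 ratios of 0.96 (0.69 to 1.21) and 1.44 (1.33 to 1.55). Zmat3, an RNA-binding zinc finger protein, had 45 UMIs against 34 and 301 against 184, and its log2 ratios of 1.99 (1.31 to 2.68) and 2.29 (2.02 to 2.57) were the highest among the genes ranked by the smaller of their ratios. Sesn2, a sestrin that restrains the growth kinase mTORC1, had 15 UMIs against 25 in the first library, a log2 ratio of 0.85 with an interval that spans 0 (-0.18 to 1.83) and of 0.11 without the cell that held 6 of the 15, and 237 against 127 in the second, a log2 ratio of 2.48 (2.17 to 2.81). Ddit4, which acts on the same kinase, stood at 1.66 (0.68 to 2.64) and 2.24 (1.87 to 2.61). Btg2, an antiproliferative gene, stood on opposite sides of 0: it had 28 UMIs against 101, a log2 ratio of -0.27 (-0.93 to 0.35), in the first library and 471 against 361, a log2 ratio of 1.97 (1.77 to 2.17), in the second. Trp53inp1, a stress protein that promotes autophagy and cell death, had 9 UMIs (8.84 CPM) against 11 (3.60 CPM) in the first library, a log2 ratio of 1.29 with an interval that spans 0 (-0.15 to 2.70). In the second it had 262 against 66, a log2 ratio of 3.57 (3.18 to 3.98), and was detected in 35.3% of Cdkn1a-high and 4.37% of matched cells. With 1 library per group, whether the libraries differ in these genes could not be tested.

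Among apoptosis genes, Bbc3, which encodes the BH3-only protein PUMA, had 31 UMIs against 32 and 141 against 155, log2 ratios of 1.54 (0.78 to 2.30) and 1.45 (1.11 to 1.78). Bax, its effector at mitochondria, was abundant and differed less, at 312 CPM against 223 CPM and 381 CPM against 240 CPM, log2 ratios of 0.49 (0.29 to 0.68) and 0.67 (0.58 to 0.76). Ei24 stood at 0.85 (0.26 to 1.42) and 1.37 (1.14 to 1.59), the nuclease gene Aen at 0.40 (-0.13 to 0.91) and 0.89 (0.67 to 1.10), and Apaf1, the scaffold of the apoptosome, at 0.20 (-0.48 to 0.85) and 0.88 (0.63 to 1.13). Triap1, an inhibitor of apoptosis, was the one target past the level that was called in neither library, at 0.14 (-0.36 to 0.62) and 0.11 (-0.13 to 0.34). The receptor gene Eda2r had 1 UMI against 0 and 34 against 4, the latter a log2 ratio of 4.67 (3.18 to 6.63). Fas, the death receptor, had 0 UMIs in both sets of the first library and 8 UMIs in 6 of 442 Cdkn1a-high cells against 0 in 1326 matched cells of the second, too few for a ratio. Pmaip1, which encodes NOXA, had 0 UMIs in every set, which allows up to 3 UMIs in each.

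Among DNA repair genes, Polk, a translesion polymerase, stood at 1.02 (0.31 to 1.70) and 1.55 (1.28 to 1.81), and Ercc5, a nuclease of nucleotide excision repair, at 0.64 (0.05 to 1.21) and 1.67 (1.45 to 1.88). Both were called in both libraries. The damage sensors of the same repair pathway had intervals that span 0. Xpc stood at -0.59 (-1.90 to 0.54) and 0.13 (-0.31 to 0.55), and Ddb2 at -0.38 (-1.55 to 0.65) and 0.09 (-0.39 to 0.55). Rrm2b, a ribonucleotide reductase subunit, stood at 0.24 (-0.73 to 1.14) and 0.11 (-0.30 to 0.51). Rps27l, a ribosomal protein paralog and the most abundant target, stood at 0.42 (0.30 to 0.54) and 0.61 (0.55 to 0.66). The long noncoding RNA Trp53cor1, which lies upstream of Cdkn1a in the genome, had 1 UMI against 1 and 36 against 10, the latter a log2 ratio of 3.43 (2.39 to 4.61). Of the remaining listed targets, Plk2, a polo-like kinase, had 10 UMIs in 7 Cdkn1a-high cells against 0 in matched cells of the Usp18+/Δ-labelled library and 0 in both sets of the other. Dcxr, a metabolic reductase, stood at 0.31 (-0.55 to 1.11) and 1.18 (0.85 to 1.4998), and Sesn1, a sestrin, at 0.08 (-1.003 to 1.07) and 0.32 (-0.13 to 0.75). Gdf15, Plk3, Ak1, Epha2, Tnfrsf10b, Tigar and Perp had at most 14 UMIs each in the Cdkn1a-high cells of a library.

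**Figure D2:**
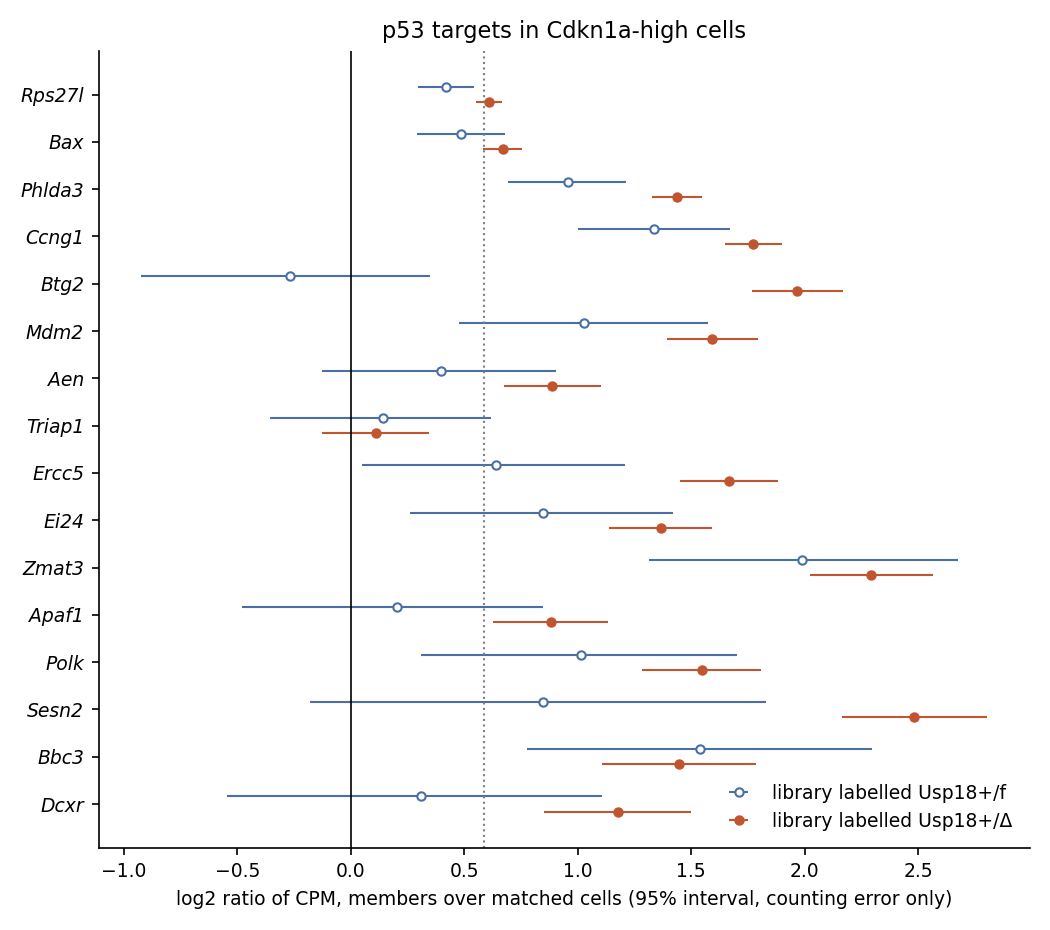
The log2 ratio of CPM in Cdkn1a-high over matched cells (x axis) for the 16 p53 targets with a mean of at least 20 CPM, ordered by abundance (y axis); open circles are the Usp18+/f-labelled library, filled circles the Usp18+/Δ-labelled library, bars are 95% intervals of counting error, and the dotted line marks 1.5-fold. Of the 16 genes, 15 lie above 0 in the first library and all 16 in the second, where Btg2 and Sesn2 stand farthest from their value in the first. Over all genes at this level, 52.3% and 40.2% were above 0. Some of the 16 passed the level only through Cdkn1a-high cells. Of the 11 that reached it in matched cells alone, 10 and 11 lie above 0.

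The higher level was a shift of most cells and not of a few. Per 10000 UMIs of a cell, p53 target UMIs had a median of 18.3 in Cdkn1a-high cells (lowest 5.81, highest 51.0) and 12.3 in matched cells (1.69 to 28.5) of the Usp18+/f-labelled library, and 27.1 (3.73 to 82.9) and 13.1 (0 to 49.5) in the other. The ranges overlapped widely in both. Of Cdkn1a-high cells, 67 of 84 (79.8%) and 406 of 442 (91.9%) lay above the mean of their own 3 matched cells. Above the 90th percentile of the matched cells lay 38 of 84 (45.2%) and 320 of 442 (72.4%).

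**Figure D3:**
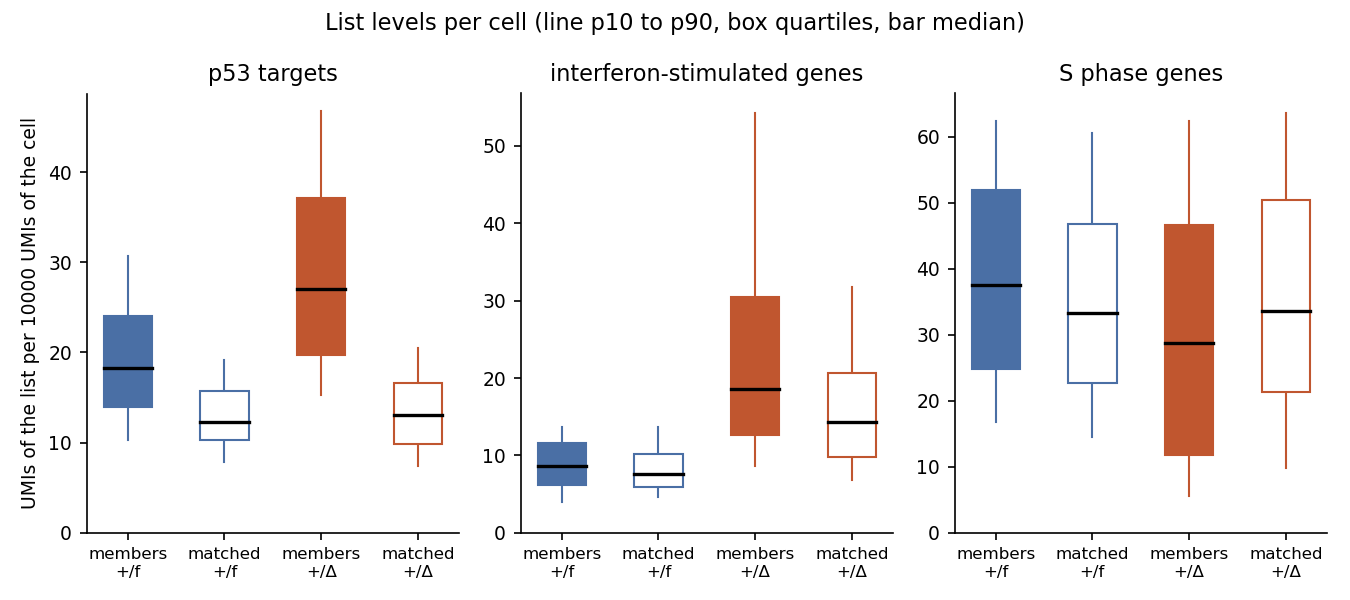
UMIs of a gene list per 10000 UMIs of a cell (y axis) for p53 targets, ISGs and S phase genes; filled boxes are Cdkn1a-high cells and open boxes matched cells of the libraries labelled Usp18+/f (+/f) and Usp18+/Δ (+/Δ), with quartiles, the median as a bar and lines from the 10th to the 90th percentile. In the p53 panel the medians of 18.3 and 27.1 in Cdkn1a-high cells stand above 12.3 and 13.1 in matched cells, while the S phase medians differ in opposite directions.

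p53 targets were already above matched cells in cells with 1 Cdkn1a UMI. Cells with 1, 2, 3 and 4 or more Cdkn1a UMIs were each compared with matched cells with 0 (1 matched cell per cell with 1 UMI and 3 for the others). In the Usp18+/f-labelled library the log2 ratios were 0.16, 0.36, 0.34 and 0.82, and in the Usp18+/Δ-labelled library they were 0.36, 0.60, 0.88 and 1.09. At 1, 2 and 3 Cdkn1a UMIs the value was higher in the Usp18+/Δ-labelled library, a difference that could not be tested. Cells with 4 or more UMIs were not alike in their counts, since 17 of 37 in the first library and 170 of 266 in the second had 5 or more. A cell with 1 UMI may hold as much Cdkn1a RNA as 1 with 3, since capture is incomplete, so the steps are not steps of expression.

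**Figure D4:**
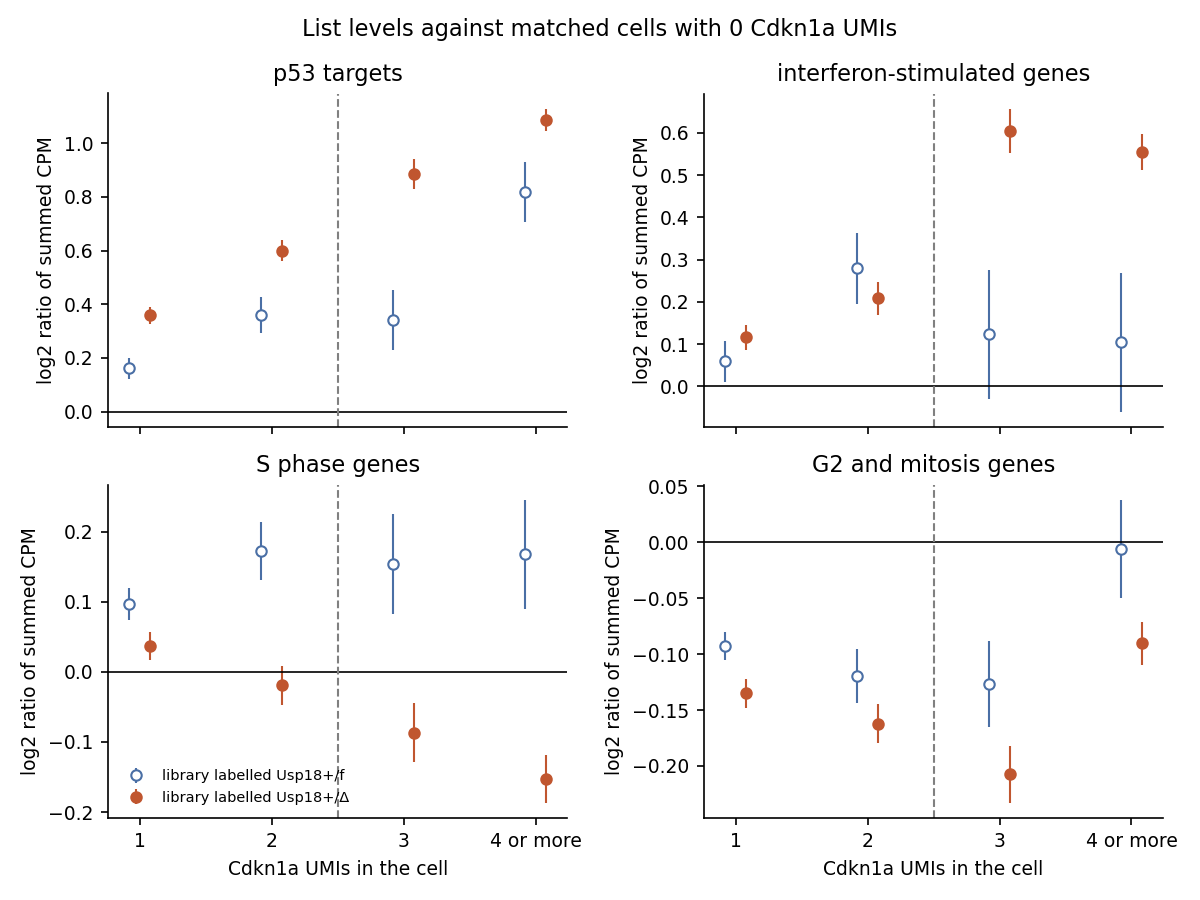
The log2 ratio of summed CPM against matched cells with 0 Cdkn1a UMIs (y axis) for 4 gene lists, by number of Cdkn1a UMIs in the cell (x axis); open circles are the Usp18+/f-labelled library, filled circles the Usp18+/Δ-labelled library, bars are 95% intervals of counting error, and the dashed line marks the threshold of the rule. p53 targets are at 0.16 to 0.82 in the first library and 0.36 to 1.09 in the second, and the S phase list is above 0 throughout the first library and lowest, at -0.15, at 4 or more UMIs in the second.

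Cell cycle genes differed far less than p53 targets, and the S phase list differed in opposite directions in the libraries. S phase genes took 3940 CPM against 3549 CPM in the Usp18+/f-labelled library, a log2 ratio of 0.15 (0.10 to 0.20), with 30 of 40 genes higher, and 3456 CPM against 3767 CPM in the Usp18+/Δ-labelled library, a log2 ratio of -0.12 (-0.15 to -0.10), with 6 of 40 higher. Over all genes, 52.3% and 40.2% were higher. The medians over the 40 genes were 0.12 and -0.14. Of the 4 most abundant S phase genes, Atad2, a chromatin ATPase, stood at 0.24 (0.03 to 0.45) and -0.13 (-0.24 to -0.02), and Mcm6, a subunit of the replicative helicase, at 0.29 (0.07 to 0.51) and -0.30 (-0.42 to -0.19). Nasp, a histone chaperone, stood at 0.06 (-0.18 to 0.30) and -0.20 (-0.31 to -0.08), and Rfc2, a clamp loader subunit, was lower in both at -0.28 (-0.51 to -0.05) and -0.08 (-0.19 to 0.03). The sign of the list turned to -0.07 in the first library at a threshold of 5 UMIs (17 cells) and to 0.12 in the second with at most 5% mitochondrial UMIs (49 cells).

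G2 and mitosis genes were slightly lower. They took 12528 CPM against 13157 CPM, a log2 ratio of -0.07 (-0.10 to -0.04), and 10226 CPM against 11079 CPM, a log2 ratio of -0.12 (-0.13 to -0.10), with 14 of 52 and 6 of 52 genes higher and medians of -0.08 and -0.15. The chromatin protein gene Hmgb2 stood at -0.03 (-0.09 to 0.02) and -0.11 (-0.14 to -0.08), Cks2, which binds cyclin-dependent kinases, at -0.03 (-0.16 to 0.09) and -0.14 (-0.21 to -0.08), and the proliferation marker Mki67 at -0.17 (-0.31 to -0.03) and -0.13 (-0.20 to -0.06). Mki67 was detected in 77.4% of Cdkn1a-high and 76.6% of matched cells of the first library and in 64.0% and 67.1% of the second. Tubb4b, a tubulin gene, lay above 0 in both libraries, at 0.14 (-0.0050 to 0.27) and 0.10 (0.03 to 0.16). Against the list, Psrc1, a microtubule-binding gene, was called higher in both libraries, with 83 UMIs against 125 and 470 against 501, log2 ratios of 0.99 (0.58 to 1.41) and 1.49 (1.31 to 1.67). Gtse1, an inhibitor of p53 that is expressed in G2 and was singled out after its values were seen, had 43 UMIs against 86 and 336 against 351, log2 ratios of 0.58 (0.02 to 1.13) and 1.52. In the Usp18+/f-labelled library the sign of the list turned in 4 of the alternatives tried, to between 0.03 and 0.14, and in the other it turned to 0.02 without matching.

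Phase calls were made from the same lists after each cell was thinned to 3000 UMIs. In the Usp18+/f-labelled library, 10 of 84 Cdkn1a-high cells (11.9%, exact 95% interval 5.86 to 20.8%) and 18.7% of matched cells (14.0 to 24.0%) were called G1, 28.6% and 23.4% S, and 59.5% and 57.9% G2 or M. In the Usp18+/Δ-labelled library, 153 of 438 Cdkn1a-high cells with enough UMIs (34.9%, 30.5 to 39.6%) and 23.7% of matched cells (21.4 to 26.1%) were called G1, 18.5% and 27.0% S, and 46.6% and 49.3% G2 or M. Cdkn1a-high cells of both libraries thus included cells called S, G2 and M.

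ISGs were higher in Cdkn1a-high cells of the Usp18+/Δ-labelled library and close to matched cells in the other. Summed over 39 ISGs found in the files, they took 880 CPM against 811 CPM in the Usp18+/f-labelled library, a log2 ratio of 0.12 (0.01 to 0.23), and 2483 CPM against 1665 CPM in the Usp18+/Δ-labelled library, a log2 ratio of 0.58 (0.54 to 0.61). Of those past the level of 20 CPM, 12 of 19 ISGs were higher in the first library, 2 of them by 1.5-fold, and 19 of 19 in the second, 7 of them by 1.5-fold, against 52.3% and 40.2% of all genes higher and 2.47% and 1.64% called higher. Their medians were 0.13 and 0.49. Of the 16 that reached this level in matched cells alone, 1 and 4 were called higher, against 1.95% and 1.27% of all genes so filtered, and the medians were 0.12 and 0.42.

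Isg15, a ubiquitin-like protein and the substrate of USP18, differed most among the 19 abundant ISGs of the Usp18+/Δ-labelled library. It had 23 UMIs (22.6 CPM) against 41 (13.4 CPM) in the Usp18+/f-labelled library, a log2 ratio of 0.75 (-0.05 to 1.52), and 1134 UMIs (259 CPM) against 985 (75.2 CPM) in the other, a log2 ratio of 1.79 (1.66 to 1.91). A single Cdkn1a-high cell held 90 of the 1134, and Isg15 was detected in 47.7% of Cdkn1a-high and 33.3% of matched cells of that library. Isg20, an exonuclease, was called in both libraries at 1.07 (0.19 to 1.92) and 0.61 (0.35 to 0.86). The membrane protein gene Bst2, the most abundant ISG, stood at 0.27 (-0.01 to 0.54) and 0.35 (0.26 to 0.44), and Ifi27l2a at 0.39 (0.06 to 0.72) and 0.68 (0.59 to 0.77).

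Of the signaling components of the pathway, the transcription factor gene Irf9 stood at 0.00 and 0.17 (-0.04 to 0.37), and Stat2, which was below 20 CPM, at 0.00 and 0.21 (-0.17 to 0.59). Usp18 had 3 UMIs against 17 in the first library and 138 against 280 in the second, log2 ratios of -0.92 (-3.33 to 0.87) and 0.56 (0.26 to 0.86). Ifit1, an antiviral effector, had 0 UMIs against 4 in the first library and 137 against 127 in the second, a log2 ratio of 1.69 (1.33 to 2.05). Mx1, an antiviral GTPase, had 0 against 1 and 41 against 20, the latter 2.62 (1.81 to 3.47), and Oasl2 had 0 against 1 and 89 against 118, the latter 1.18 (0.76 to 1.58). Per 10000 UMIs the median ISG level was 8.60 in Cdkn1a-high and 7.58 in matched cells of the first library and 18.5 and 14.3 in the second. In that second library 102 of 442 Cdkn1a-high cells (23.1%) lay above the 90th percentile of matched cells, and the highest reached 344 per 10000.

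p53 targets were above matched cells at high and at low ISG level. Cdkn1a-high cells of each library were split at their median ISG level, so their ISG values are fixed by the split. In the Usp18+/Δ-labelled library the upper 221 cells had p53 targets at a log2 ratio of 1.11 (1.06 to 1.16) to their matched cells and the lower 221 cells at 0.93 (0.88 to 0.97). S phase genes were at -0.35 (-0.40 to -0.31) in the upper and 0.04 (0.01 to 0.07) in the lower cells, and 49.1% and 20.6% were called G1. Erythroid genes moved with the same split, at 1.57 (1.55 to 1.59) in the upper and 0.63 (0.61 to 0.65) in the lower cells, and their part in the S phase and G1 values was not tested. The upper cells had fewer UMIs, with medians of 8233 and 10305. In the Usp18+/f-labelled library, p53 targets stood at 0.53 (0.42 to 0.65) in the upper 42 cells and 0.61 (0.50 to 0.72) in the lower 42, and S phase genes at 0.09 (0.02 to 0.17) and 0.20 (0.13 to 0.27).

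Of the maturation lists, the erythroid one stood apart, and its haemoglobin genes carried most of the difference. The list was at a log2 ratio of 0.37 (0.34 to 0.40) in the Usp18+/f-labelled library and 1.16 (1.14 to 1.17) in the Usp18+/Δ-labelled library, while the median over its 15 genes past 20 CPM was 0.36 and 0.24. The 4 haemoglobin genes Hbb-bs, Hbb-bt, Hba-a1 and Hba-a2, near-identical pairs whose reads cannot be fully told apart, were together at 0.71 (0.67 to 0.76) and 2.04 (2.02 to 2.06), while the other 13 genes were at 0.05 (0.01 to 0.10) and 0.21 (0.19 to 0.23). Car2, a carbonic anhydrase singled out after its values were seen, had 907 CPM against 700 CPM and 1038 CPM against 585 CPM, log2 ratios of 0.37 (0.26 to 0.49) and 0.83 (0.77 to 0.88). Car1, the most abundant of the others, stood at -0.10 (-0.18 to -0.03) and 0.04 (0.00 to 0.07), and the master regulator genes Gata1 and Klf1, chosen likewise, stood within 0.07 of 0 in both libraries.

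Haemoglobin was spread over cells unevenly. The median per 10000 UMIs was 25.1 in Cdkn1a-high and 9.50 in matched cells of the Usp18+/f-labelled library and 16.9 and 6.40 in the other, while the highest cells reached 913, 1962, 3845 and 1063. More than 100 per 10000 was found in 14 of 84 Cdkn1a-high cells (16.7%, 9.42 to 26.4%) against 10.3% of matched cells, and in 105 of 442 (23.8%, 19.9 to 28.0%) against 6.64%. The 10 Cdkn1a-high cells with the most haemoglobin held 50.2% and 32.1% of it. Without all cells above 100 the erythroid list was at 0.24 and 0.25, and in the Usp18+/Δ-labelled library the ISG list stood at 0.43 instead of 0.58.

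Genes of mast cells and basophils included single genes on both sides of 0 under a nearly equal sum, with log2 ratios of 0.07 (0.02 to 0.12) and 0.01 (-0.02 to 0.03). The first of these turned below 0 in 3 of the alternatives tried, as far as -0.11 without matching. Cpa3, the mast cell carboxypeptidase, was lower in both libraries, with 36 UMIs against 176 and 375 against 1867, log2 ratios of -0.71 (-1.26 to -0.18) and -0.73 (-0.90 to -0.57), and at -0.56 and -0.54, short of 1.5-fold, with 1 matched cell per Cdkn1a-high cell. Without matching it stood at -1.58 and -1.30. A single cell held 16 of the 36 UMIs in the first library and 30 of the 375 in the second. With that cell and its matched cells left out, Cpa3 stood at -1.54 (-2.29 to -0.87) and -0.85 (-1.02 to -0.69). It was detected in 10.7% of Cdkn1a-high and 25.4% of matched cells of the first library and in 25.6% and 34.5% of the second. Cma1, the mast cell chymase and chosen after its values were seen, lay on opposite sides of 0, with 402 UMIs against 912, a log2 ratio of 0.40 (0.23 to 0.57), in the first library and 1224 against 5619, a log2 ratio of -0.62 (-0.71 to -0.53), in the second, where it was called lower. That difference between the libraries was not tested. In the first library 1 cell held 73 of the 402 Cma1 UMIs. Leaving out that cell and its matched cells put Cma1 at 0.13 (-0.06 to 0.31) there, an interval that spans 0. Mcpt2, a mast cell protease with close paralogs, was higher in both at 0.92 (0.46 to 1.38) and 0.74 (0.52 to 0.96), but 1 cell held 18 of its 67 UMIs in the first library and 1 held 71 of 268 in the second. Without that cell and its matched cells, an alternative chosen after seeing the data, Mcpt2 stood at 0.58 (0.06 to 1.09) and 0.30 (0.05 to 0.54), short of 1.5-fold in both. Csf2rb and Csf2rb2, the shared receptor chains for interleukin 3 and related cytokines and near-identical copies of each other, were higher in both, Csf2rb at 0.59 (0.38 to 0.80) and 0.79 (0.70 to 0.88) and Csf2rb2 at 1.21 (0.61 to 1.80) and 1.65 (1.46 to 1.84). Without matching, Csf2rb2 stood at 0.47 and 1.03 and was no longer called in the first library. The proteoglycan gene Srgn, most abundant on the list, stood at -0.05 (-0.13 to 0.02) and -0.14 (-0.18 to -0.10), and Il1rl1, the interleukin 33 receptor, at -0.08 (-0.22 to 0.07) and 0.29 (0.23 to 0.36).

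Stem and progenitor genes stood at 0.04 (-0.05 to 0.13) and -0.10 (-0.15 to -0.06) as a list, which turned to 0.06 in the second library with at most 5% mitochondrial UMIs (49 cells). Myc, a transcription factor that drives growth, was lower in both libraries: 108 UMIs (106 CPM) against 459 (150 CPM), a log2 ratio of -0.50 (-0.82 to -0.20), and 281 (64.2 CPM) against 1812 (138 CPM), a log2 ratio of -1.11 (-1.29 to -0.92). It was detected in 58.3% of Cdkn1a-high and 77.4% of matched cells of the first library and in 35.7% and 62.5% of the second. Runx1, whose human counterpart contributes the AML1 part of the fusion, stood at 0.14 (0.01 to 0.28) and 0.03 (-0.04 to 0.10), Myb at -0.12 (-0.35 to 0.10) and -0.19 (-0.30 to -0.08), and Lmo2 at 0.18 (-0.09 to 0.44) and 0.16 (0.03 to 0.30). Granulocyte and monocyte genes were scarce, with 49 and 258 UMIs over 25 genes in Cdkn1a-high cells, 17 and 8 of the 25 genes being at 0 in both sets of a library. The list stood at 0.23 (-0.27 to 0.72) and 0.25 (0.04 to 0.46), and its sign turned in the second library in 3 of the alternatives tried, for one to -0.65 without matching.

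**Figure D5:**
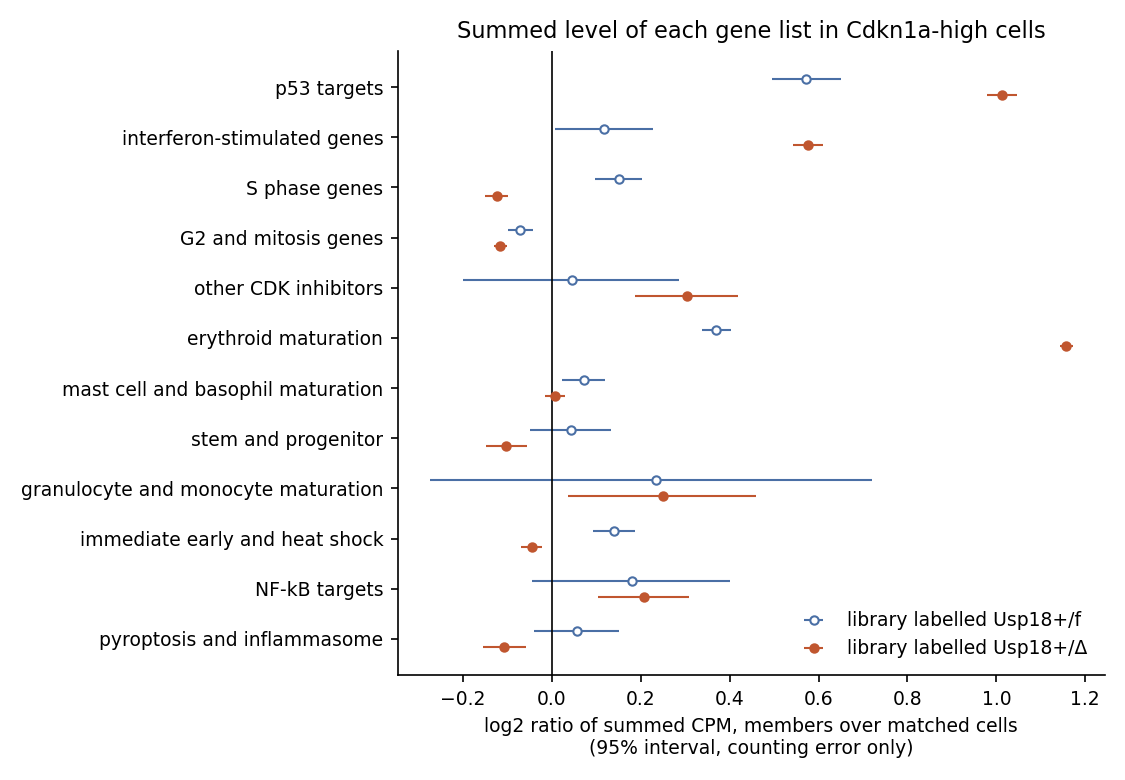
The log2 ratio of the summed CPM of each gene list in Cdkn1a-high over matched cells (x axis) for 12 lists (y axis); open circles are the Usp18+/f-labelled library, filled circles the Usp18+/Δ-labelled library, and bars are 95% intervals of counting error. p53 targets stand at 0.57 and 1.01 and erythroid genes at 0.37 and 1.16, while S phase genes stand on opposite sides of 0 at 0.15 and -0.12.

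Across all 5986 genes past the level of 20 CPM, 148 were called higher and 125 lower in the Usp18+/f-labelled library and 98 higher and 37 lower in the Usp18+/Δ-labelled library, with 35 higher and 5 lower in both. A gene could reach this level through its Cdkn1a-high cells alone. With genes filtered on their level in matched cells instead, a filter chosen after seeing the data, 117 of 5987 genes (1.95%) were called higher and 160 (2.67%) lower in the Usp18+/f-labelled library and 76 (1.27%) and 48 (0.802%) in the other, with 24 higher and 8 lower in both, so that lower genes outnumbered higher ones in the first library under this filter. Counting error is wider in the first library, which has fewer Cdkn1a-high cells. Of the 98 genes called higher in the Usp18+/Δ-labelled library, 87 (88.8%) were higher in the other library too, with a median log2 ratio of 0.42 there, against 52.3% and 0.01 over all genes. Of the 37 called lower, 24 (64.9%) were lower there, against 47.7%. The filter includes Cdkn1a-high cells of both libraries, which favours higher values. Filtered on matched cells alone, 65 of the 76 called higher (85.5%) were higher in the other library, with a median of 0.39, against 50.7% of all genes, and 34 of the 48 called lower (70.8%) were lower, against 49.3%.

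Ranked by the smaller of both ratios, the 15 leading genes included Zmat3, Bbc3, Ccng1, Mdm2, Polk, Phlda3, Sesn2 and Ei24 of the p53 list. Of the 15, 8 had a mean below 20 CPM over the matched cells of both libraries (Zmat3, Slc19a2, Bbc3, Ddias, Rnf169, Polk, Sesn2 and Rgs1), so they reached the level for ranking only through Cdkn1a-high cells and their number is no evidence on the p53 list. In matched cells Zmat3 stood at 11.1 CPM and 14.0 CPM, Bbc3 at 10.5 CPM and 11.8 CPM and Sesn2 at 8.19 CPM and 9.69 CPM. With 1 matched cell per Cdkn1a-high cell, Sesn2 stood at 0.45 in the Usp18+/f-labelled library, short of 1.5-fold. Of the genes off the list, Slc19a2, a thiamine transporter, had 22 UMIs against 23 and 255 against 123, log2 ratios of 1.52 (0.61 to 2.43) and 2.63 (2.32 to 2.96). Ddias, a suppressor of apoptosis after DNA damage, stood at 1.37 (0.65 to 2.10) and 1.73 (1.41 to 2.04), and Rnf169, which binds ubiquitin at DNA breaks, at 1.10 (0.37 to 1.81) and 1.23 (0.94 to 1.52). Rgs1, a regulator of G protein signaling, stood at 1.43 (0.61 to 2.24) and 0.82 (0.56 to 1.08), but at 0.63 and 0.41 without matching, where the call in the second library was lost. Serpinb1a, a protease inhibitor, stood at 1.04 (0.67 to 1.41) and 0.94 (0.69 to 1.18), but at 2.25 in the first library with 1 matched cell per Cdkn1a-high cell, and at 0.61 and -0.06 without matching, so its direction in the second library rests on the matched cells. Without the cell with most of their UMIs, Rgs1 stood at 0.44 in the second library, where 1 cell held 46 of 198 UMIs, and Serpinb1a at 0.56 in the first, where 1 held 32 of 105, both short of 1.5-fold. Csf2rb2 and Psrc1, described above, complete the 15.

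The leading lower genes differed by less. Bora, an activator of mitotic kinases, stood at -0.73 (-1.31 to -0.18) and -0.72 (-1.0003 to -0.44), the tetraspanin gene Tspan4 at -0.90 (-1.61 to -0.26) and -0.66 (-0.98 to -0.34), and Nop16, a nucleolar protein gene, at -0.65 (-1.15 to -0.17) and -0.67 (-0.92 to -0.42). Without matching, Bora stood at -0.43 and -0.52 and Nop16 at -0.46 in the first library, all short of 1.5-fold. Edem3, P4ha3, AC078895.1, Hist1h2ab and Rpp14 lay between -0.50 and -0.70 with intervals that reached above 0 in the Usp18+/f-labelled library. Cpa3 and Myc were the other 2 of the 10.

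The Cdkn1a-high cells of both libraries were also set against each other, which compares the libraries and not the rule. Their p53 target level was higher in the Usp18+/Δ-labelled library by a log2 ratio of 0.52 (0.45 to 0.59), while matched cells differed by 0.08 (0.03 to 0.13). For ISGs the values were 1.496 (1.40 to 1.596) and 1.04 (0.98 to 1.10), for S phase genes -0.19 (-0.24 to -0.14) and 0.09 (0.06 to 0.12), and for G2 and mitosis genes -0.29 (-0.32 to -0.26) and -0.25 (-0.26 to -0.23). Erythroid genes were at 0.57 (0.54 to 0.60) and -0.22 (-0.24 to -0.20). Cdkn1a itself was at 337 CPM and 486 CPM in these cells. Of the p53 targets, only Mdm2, Ccng1, Phlda3, Zmat3, Trp53inp1 and Btg2 were compared in this way. Among them Trp53inp1 at 2.76 (1.81 to 3.90) and Btg2 at 1.97 (1.42 to 2.57), chosen after their values were seen, differed most. Trp53cor1, with 1 and 36 UMIs in these cells, and Eda2r, with 1 and 34, were not among those compared.

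The other inhibitors of cyclin-dependent kinases stood at 0.05 (-0.20 to 0.29) and 0.30 (0.19 to 0.42) as a list. Cdkn1b, encoding p27, stood at -0.03 (-0.59 to 0.51) and 0.21 (-0.03 to 0.44), Cdkn2c at -0.22 (-0.57 to 0.12) and 0.35 (0.20 to 0.51), and Cdkn2d at 0.24 (-0.37 to 0.82) and 0.06 (-0.27 to 0.37). Cdkn2a, the Arf and p16 locus, had 20 UMIs against 14 and 35 against 55, log2 ratios of 2.10 (1.04 to 3.20) and 0.93 (0.28 to 1.57). The list of cyclins, CDKs and pocket proteins stood at 0.06 (-0.02 to 0.15) and 0.03 (-0.01 to 0.08).

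Stress, inflammation and pyroptosis lists stood close to their matched cells as sums, which a few abundant genes carry. Immediate early and heat shock genes stood at 0.14 (0.09 to 0.19) and -0.05 (-0.07 to -0.02), and the chaperone genes Hsp90aa1, at 0.14 and -0.10, and Hspa8, at 0.18 and 0.02, took most of their UMIs. Of the immediate early transcription factors below the level for calls, 3 were chosen after their values were seen. Jun stood at 0.69 (-0.15 to 1.49) and 0.85 (0.45 to 1.24), Fos at 1.81 (0.0098 to 3.66) and 1.12 (0.10 to 2.12), and Egr1 at -0.74 (-2.48 to 0.67) and 1.07 (0.29 to 1.84). Without the cell with most of its UMIs, Jun stood at 0.21 and 0.67 and Fos at 0.999 and 0.29. Egr1 kept 2 of its 5 UMIs in the first library when treated likewise and stood at -2.06 (-5.18 to -0.06) there. NF-kB targets stood at 0.18 (-0.05 to 0.40) and 0.21 (0.10 to 0.31), Nfkbia, the inhibitor that NF-kB induces, being at 0.02 (-0.62 to 0.62) and 0.52 (0.28 to 0.77). Pyroptosis and inflammasome genes stood at 0.06 (-0.04 to 0.15) and -0.11 (-0.16 to -0.06), with the adaptor gene Pycard at -0.01 (-0.30 to 0.27) and -0.21 (-0.35 to -0.08).

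Markers of other cell types were at low levels except Dcn, which encodes the matrix proteoglycan decorin. The 9 macrophage markers took 10 UMIs in Cdkn1a-high and 18 in matched cells of the Usp18+/f-labelled library and 149 and 164 in the other, a log2 ratio of 1.44 (1.11 to 1.77) there. Of the 149, 58 were Hmox1, found in 14 of 442 cells with 39 in 1 cell, and 45 were Slc40a1, both of which other cells can express, while C1qa had 11 UMIs in 9 cells. The 12 lymphoid markers took 14 against 17 and 123 against 202 UMIs, with log2 ratios of 1.30 (0.17 to 2.41) and 0.87 (0.53 to 1.20) at levels of 13.8 CPM against 5.57 CPM and 28.1 CPM against 15.4 CPM. Nkg7, a granule protein gene of cytotoxic lymphocytes, alone had 12, 17, 121 and 193 of these UMIs, log2 ratios of 1.08 (-0.12 to 2.23) and 0.91 (0.57 to 1.24), and Cd3e and Ms4a1 had 0 in every set. Leaving out cells with a UMI of C1qa, C1qb, C1qc, Cd79a, Cd79b or Cd3e, 4 and 19 Cdkn1a-high cells, kept the p53 and ISG lists within their intervals. The 8 endothelial and stromal markers stood at -0.20 (-0.62 to 0.19) and -0.05 (-0.25 to 0.14), and 6 of them were at 0 in both sets of each library. Nearly all of their UMIs were Dcn, with 68 in Cdkn1a-high and 234 in matched cells (66.8 CPM and 76.7 CPM) of the Usp18+/f-labelled library and 286 and 896 (65.4 CPM and 68.4 CPM) of the other.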

How the data were processed

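Single-cell RNA-seq of sorted GFP+ Lin− c-Kit+ spleen cells was available as 1 library per group (oil, Usp18+/f; tamoxifen, Usp18+/Δ). The values deposited by the authors are raw UMI counts per gene and barcode from Cell Ranger 3.0.2 on mm10, with no normalization. Seurat is named in the submitters' processing notes, and none of its output was used. Of 31053 genes, 31011 matched GENCODE vM21, from which gene coordinates were taken.

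The filter kept barcodes with 500 or more detected genes and no more than 10% of UMIs from mitochondrial genes. Members and gene lists were chosen with earlier results of these data known. UMIs of members and of matched cells were summed per library and given as counts per 1000000 UMIs (CPM). Intervals are exact conditional 95% intervals for ratios, Clopper-Pearson intervals for shares and score intervals for ratios of shares. A count of 0 was put at a floor of 3 counts for calls. No p-value was computed, since each group is 1 library. Cell cycle phases and Scrublet doublet scores came from scanpy 1.11.5. The automatic doublet threshold marked 0.189% and 0.0270% of cells and so did not work, and no cell was removed by it. Named genes were the p53 and ISG list members, the 15 highest and 10 lowest genes ranked by the smaller of both log2 ratios, and of each other list the 4 most abundant genes and those past 1.5-fold in both libraries. Scripts ran in Python 3.11.15 with numpy 2.4.6, scipy 1.17.1 and pandas 2.3.3 and were tested on simulated data. Alternatives covered the threshold, thinning, the mitochondrial limit, doublet scores, matching, scaling, single cells and the level filter. Those without haemoglobin-rich cells, without cells with markers of other types, without shared barcodes and with genes filtered on matched cells alone were chosen after seeing the data. Some items are not reported here.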

Additional observations from a re-analysis of the deposited data

Results flagged for a closer look

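S phase genes as a list stood on opposite sides of 0 in the libraries. The log2 ratio of Cdkn1a-high over matched cells was 0.15 in the Usp18+/f-labelled library and -0.12 in the Usp18+/Δ-labelled library. Both values were above 0 with at most 5% mitochondrial UMIs, at 0.031 and 0.12, and both below 0 at a threshold of 5 UMIs, at -0.075 and -0.24. Without haemoglobin-rich cells the second was -0.060. The difference between the libraries was not tested, since each group is 1 library.

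Barcodes that the filters on genes and mitochondrial UMIs left out also held Cdkn1a. At least 3 UMIs were found in 2 of 395 such barcodes (0.506%, exact 95% interval 0.0614 to 1.82%) in the Usp18+/f-labelled library and in 13 of 427 (3.04%, 1.63 to 5.15%) in the Usp18+/Δ-labelled library. The share was again higher in the latter, but these intervals overlap. The left-out barcodes were not compared at equal depth.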

How the results depend on the processing

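No paired analysis was possible because the cells of 3 mice were pooled and sequenced as a single sample per group. The summed p53 target list stayed above 0, from 0.45 to 0.97 in the Usp18+/f-labelled library and from 0.84 to 1.14 in the Usp18+/Δ-labelled library. The share of Cdkn1a-high cells was higher in the latter under every alternative tried. The cause of the shifts below was not tested. Values are log2 ratios of Cdkn1a-high over matched cells, for the Usp18+/f-labelled and Usp18+/Δ-labelled libraries in this order where both are given, and a list left out of a sentence moved by less than its interval. Depth limits single genes most in the Usp18+/f-labelled library, where 3 UMIs equal 2.95 CPM over the Cdkn1a-high cells, against 0.686 CPM in the other.

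With a threshold of 2 UMIs the log2 ratio of shares was 1.76, p53 targets stood at 0.45 and 0.84 and erythroid genes at 0.43 and 0.95. In the Usp18+/Δ-labelled library, ISGs stood at 0.41, S phase genes at -0.090, G2 and mitosis genes at -0.14 and granulocyte and monocyte genes at -0.92. With a threshold of 5 UMIs (17 and 170 cells) the ratio of shares was 3.22, p53 targets stood at 0.97 and 1.14, S phase genes at -0.075 and -0.24, G2 and mitosis genes at 0.14 and -0.073, erythroid genes at 1.02 and 1.44 and stem and progenitor genes at -0.26 and -0.15, with mast cell genes at 0.20 in the first library and ISGs at 0.72 in the second. Thinning cells to 3000 or 6000 UMIs gave ratios of shares of 3.04 and 2.85. With at most 5% mitochondrial UMIs (10 and 49 cells) the ratio of shares was 2.80, S phase genes stood at 0.031 and 0.12, G2 and mitosis genes at -0.30 and -0.089, erythroid genes at 0.077 and 1.65, mast cell genes at 0.40 and -0.036, stem and progenitor genes at -0.31 and 0.062 and granulocyte and monocyte genes at 1.05 and -4.31, with p53 targets at 0.95 and ISGs at 0.29 in the second library.

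Without matching, G2 and mitosis genes stood at 0.13 and 0.023 and mast cell genes at -0.11 and -0.17, S phase genes at 0.086 in the first library, and in the second ISGs at 0.48, erythroid genes at 1.06, stem and progenitor genes at -0.15 and granulocyte and monocyte genes at -0.65. Serpinb1a stood at -0.060 in the second library. Genes called numbered 73 higher and 83 lower in the first library and 3 lower in both. Matching within phase gave S phase genes at 0.031 and -0.046, erythroid genes at 0.46 and 1.04, and in the second library ISGs at 0.49 and G2 and mitosis genes at -0.023. With 1 matched cell per member, erythroid genes stood at 0.24 and 1.10 and G2 and mitosis genes at -0.17 in the first library, and 250 genes were called higher and 229 lower in the first, 59 lower in the second and 9 lower in both.

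Without the highest doublet scores, G2 and mitosis genes stood at 0.044 and -0.13, mast cell genes at -0.0081 in the first library, and p53 targets at 1.05, ISGs at 0.62 and erythroid genes at 1.23 in the second. The mean of per-cell CPM gave G2 and mitosis genes at 0.028 and -0.090, mast cell genes at -0.032 in the first library, and p53 targets at 1.09, ISGs at 0.63, S phase genes at -0.20 and erythroid genes at 1.39 in the second. Median-of-ratios scaling gave, in the second library, p53 targets at 1.06, ISGs at 0.62, S phase genes at -0.082, G2 and mitosis genes at -0.073, erythroid genes at 1.20 and mast cell genes at 0.050. A total without mitochondrial, ribosomal protein and haemoglobin genes gave erythroid genes at 1.17 in the second library. Without the single cell with the most UMIs of the list, erythroid genes stood at 0.28 and 1.10 and mast cell genes at 0.0070 in the first library.

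Without haemoglobin-rich cells, an alternative chosen after seeing the data, erythroid genes stood at 0.24 and 0.25, and in the second library ISGs at 0.43, S phase genes at -0.060, G2 and mitosis genes at -0.084 and mast cell genes at -0.093. Without cells with markers of other types, also chosen later, erythroid genes stood at 1.08 in the second library. At a level of 5 CPM, 511 genes were called higher and 579 lower in the first library, 278 and 181 in the second and 91 and 30 in both, and at 50 CPM these numbers were 34 and 8, 39 and 6, and 18 and 2. With genes filtered on matched cells alone, also chosen later, 8 were called lower in both. Leaving out the cell with most UMIs of a gene, Isg15, Ercc5 and Csf2rb stood at 0.58, 0.53 and 0.498 in the first library and Isg20 and Xaf1 at 0.57 in the second, all just short of 1.5-fold.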
